A study of Sus scrofa with 9 samples.

Results

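Solute carriers are membrane proteins that move amino acids, ions, sugars, nucleosides, vitamins and metals across the plasma membrane or into organelles. Many plasma membrane members draw on the sodium gradient, others exchange one substrate for another, and the SLC25 family links the mitochondrial matrix to the cytosol. In endothelium they supply arginine for nitric oxide synthesis, take up adenosine from the blood side and feed glutamine to growing cells. The genes described here are those whose symbol starts with SLC and a number, leaving out SLC1A1, SLC2A1, SLC2A3, SLC16A1 and SLC16A3. They were 116 of the 6765 genes to which the platform annotation gave a probe set of 1 symbol, and had 168 probe sets. Where a gene had several probe sets, the one with the highest mean log2(signal + 16) over the 9 arrays stood for it. Of the 116 genes 81 passed the filter on dim probe sets, among them 9 of 16 amino acid carriers, 7 of 14 ion carriers and 19 of 21 members of the SLC25 family.

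The RNA came from pig coronary arterial endothelial cells and was hybridised to Affymetrix porcine arrays, 3 per group. Passage 1 cells, the controls, had grown in primary culture for 1 week. Passage 4 cells had been passaged every week and are the ones the labels call senescent. Regenerated cells had regrown in the animal after the endothelium was stripped, and were scraped off and cultured without further passage, with 0.5 to 1 ug of total RNA labelled in place of 1 ug. The labels name no genetic change or drug, and leave unsaid if the 3 arrays of a group stand for 3 animals or cultures, so p-values measure only the spread between these arrays. RNA input and array group cannot be told apart for the regenerated cells. In such bulk RNA, fewer cells of a type and less RNA per cell cannot be told apart either.

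Of the endothelial markers, PECAM1 was at 5520 to 9079 on the 9 arrays and CDH5 at 8524 to 11246, while the probe sets of KDR and VWF were below the filter. Others of the list moved: CLDN5 fell (log2 -1.62, limma adjusted p = 0.0134) and ENG rose (1.92, adjusted p = 0.0153) in regenerated cells, and NOS3 fell at passage 4 (-0.97, adjusted p = 0.045; -0.55, adjusted p = 0.48 with the kind of labelling, described next, as a block). Summed signals of 10 fibroblast markers ran from 4893 to 6781 in regenerated cells, from 1311 to 3627 at passage 1 and from 2011 to 2184 at passage 4. FAP, THY1 and LUM of that list rose in regenerated cells against passage 1, by 3.25, 2.89 and 3.50 on the log2 scale, and COL3A1 and DPT were below the filter. The 5 other tested markers did not pass in limma, among them COL1A2 (0.08, adjusted p = 0.881), DCN (0.23, adjusted p = 0.821) and FBLN1 (1.36, adjusted p = 0.0774). FBLN1 gave much of the sums, with mean signals of 3334 in regenerated cells, 1513 at passage 1 and 1023 at passage 4. FAP passed the filter only through the 3 regenerated arrays, so its difference is no more than a description. LUM did not pass with the kind of labelling as a block (adjusted p = 0.0742). Summed signals of 8 smooth muscle markers were 32952 to 47402, 17776 to 38367 and 17828 to 33453 in the same order, and SMTN of that list rose by 0.89 in regenerated cells, though not with that block (adjusted p = 0.0809). The 5 other tested smooth muscle markers did not pass in regenerated cells against passage 1. Among them were TAGLN (-0.04) and ACTA2, which ran from 196 to 13189 within passage 1. Between passage 4 and regenerated cells, passage 4 was lower in THY1 (-2.35, limma adjusted p = 0.0061), FBLN1 (-1.67, adjusted p = 0.0214), CNN1 (-2.53, adjusted p = 0.0325) and ENG (-1.63, adjusted p = 0.0177). FAP was at -3.35 there, again only a description. With the kind of labelling as a block the 5 differences were -2.08, -0.59, -4.86, -0.20 and -4.09. The other tested markers of these lists did not pass in that comparison. All 7 leukocyte markers, PTPRC among them, were below the filter. The part of these cells in the differences of regenerated cells was not tested. Spike-in transcripts divided the arrays into kinds by how far labelling reached towards the 5' end, one with 5' minus 3' log2 differences of -2.48 to -1.97 and the other with -5.70 to -4.67. The first holds all passage 4 arrays plus array 1 of passage 1, and the second all regenerated arrays plus passage 1 arrays 2 and 3. Of the 81 carriers, 8 had passage 1 array 1 more than 1 log2 unit outside arrays 2 and 3. Values from a fit with the kind of labelling as a block are therefore given beside calls it changes. In that fit regenerated cells are compared with passage 1 arrays 2 and 3, which gives the same difference as leaving out passage 1 array 1. The fit compares passage 4 with passage 1 array 1 alone, an arm of 1 array whose spread is taken from the other arrays, and passage 4 with regenerated cells only indirectly, through passage 1 array 1 against arrays 2 and 3. It passed 150, 926 and 35 of 15299 probe sets (0.98%, 6.05% and 0.229%) at passage 4 and in regenerated cells against passage 1 and between passage 4 and regenerated cells, with a median SE of 0.44 in the last comparison against 0.27 without the block.

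Few solute carriers passed the threshold, with shares on either side of those of all named genes. In limma fits over all 15299 tested probe sets, 4 of 81 passed the threshold (Benjamini-Hochberg adjusted p under 0.05) at passage 4 against passage 1, with 2 higher and 2 lower, which is 4.94% against 4.82% of all named genes (1.88% higher and 2.95% lower). In regenerated cells against passage 1 there were 8, with 5 higher and 3 lower, 9.88% against 5.93% of all named genes (2.66% higher and 3.28% lower). At passage 4 against regenerated cells there were 6, with 2 higher and 4 lower, 7.41% against 10.7% of all named genes (5.86% higher and 4.88% lower). The 18 calls fell on 11 genes, all of which had separate groups of 3 arrays in the comparison called. Separate groups alone were met by 8 carriers higher and 11 lower at passage 4 (11.6% and 12.3% of all named genes), by 9 and 11 in regenerated cells (10.8% and 12.9%) and by 8 and 16 between passage 4 and regenerated cells (19.2% and 17.3%). The first and second comparisons share the passage 1 arrays, so calls common to both are not independent of each other. The count of 4 was 8 without passage 1 array 1, 2 without passage 1 array 2 or passage 4 array 1 or 2, and 1 without passage 4 array 3. The count of 8 was 2 without regenerated array 2 or 3. The count of 6 was 2 without passage 4 array 1 or regenerated array 2, and 3 without passage 4 array 2 or 3 or regenerated array 3. It was 9 without passage 1 array 1. Shares over all tested probe sets moved as well. In the first comparison 4.79% became 9.17% without passage 1 array 1 and 1.59% to 2.03% in the other cases named. In the second 5.49% became 1.9% and 2.26%. In the third 12.5% became 15.7% without passage 1 array 1 and 5.85% to 6.82% in the other cases.

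**Figure D1:**
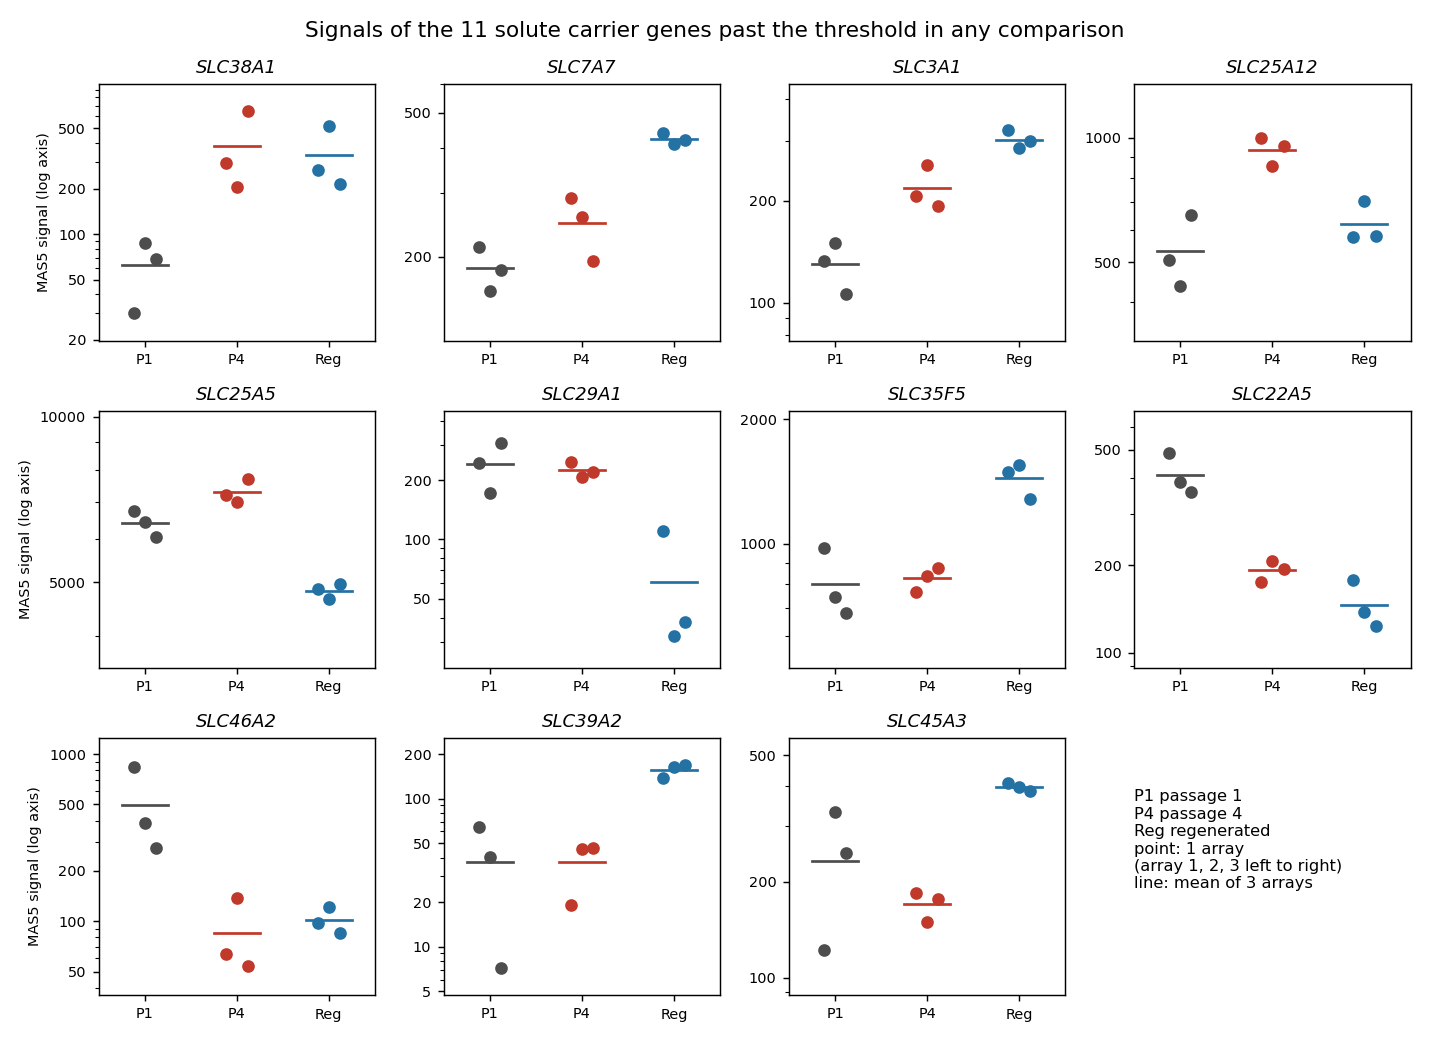
MAS5 signal (log axis, different in each panel) of the 11 solute carrier genes past the threshold in any comparison, in passage 1 (P1), passage 4 (P4) and regenerated (Reg) cells. Each point is 1 array and each line the mean of 3. SLC38A1 lies at 87.8 or lower on the passage 1 arrays and at 204 or higher on the 6 others, while SLC22A5 and SLC46A2 are highest at passage 1.

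On their brightest probe sets, amino acid carriers held 3 of the 5 rises in regenerated cells against passage 1. These were 3 of 9 tested, beside 2.66% of all named genes called higher. The dimmer tested probe sets of SLC38A1 and SLC3A1 did not pass there, so the count depends on the probe set taken. SLC38A1, a sodium-coupled carrier of glutamine and other neutral amino acids, had signals of 30.1, 87.8 and 68.6 on the passage 1 arrays, 294, 204 and 651 on the passage 4 arrays and 265, 514 and 215 on the regenerated arrays. All 6 arrays of the later groups thus lay above the 3 of passage 1. The rise was 2.27 (SE 0.45, limma adjusted p = 0.0185) at passage 4 and 2.14 (SE 0.45, adjusted p = 0.0202) in regenerated cells on the scale of log2(signal + 16), or 4.82-fold and 4.39-fold. The difference between passage 4 and regenerated cells was 0.13, with a 95% interval from -0.85 to 1.12. A dimmer probe set of SLC38A1 was at 1.96 (adjusted p = 0.015) and 1.19 (adjusted p = 0.0884), so the second of these did not pass. With the kind of labelling as a block the rises were 2.95 and 1.79, and the second passed. The value of 2.95 rests on passage 1 array 1 alone, which at 30.1 is the dimmest array for SLC38A1 and below the filter level. In the fit without the block, the rise at passage 4 did not pass without passage 4 array 3 (1.82, adjusted p = 0.0699). Nor did the rise in regenerated cells without regenerated array 2 (1.78, adjusted p = 0.0931).

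SLC7A7, a light chain that exchanges cationic for neutral amino acids, stood at 212, 160 and 184 at passage 1, 290, 257 and 194 at passage 4 and 440, 410 and 421 in regenerated cells. The regenerated arrays lay above all others and close together. SLC7A7 rose by 1.13 (SE 0.22, adjusted p = 0.014) against passage 1, a call lost without regenerated array 2 or 3 (adjusted p up to 0.0533), and passage 4 was lower than regenerated by a log2 difference of -0.76 (adjusted p = 0.0439). The latter call was lost when any 1 of the 6 arrays compared was left out, and with the kind of labelling as a block (-1.04, adjusted p = 0.197). SLC3A1, the heavy chain that pairs with SLC7A9 for cystine and cationic amino acids in kidney and gut, stood at 133, 150 and 106, then 207, 256 and 192, then 323, 286 and 301. The 3 groups of SLC3A1 did not overlap, with passage 1 lowest and regenerated highest. Its rise in regenerated cells was 1.14 (SE 0.22, adjusted p = 0.0141), and it did not pass without regenerated array 3. At passage 4 SLC3A1 was at 0.69 (adjusted p = 0.107), and its other tested probe set was at 1.23 in regenerated cells (adjusted p = 0.067), neither of which passed. Its partner SLC7A9 was below the filter, at 10.5 or less on every array.

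The 6 other tested amino acid carriers passed in no comparison. SLC7A1, a main route of arginine into endothelial cells, had mean signals of 1771 ± 117 (SD, n = 3) for passage 1, 1933 ± 248 for passage 4 and 1596 ± 149 for regenerated cells. Its log2 differences from passage 1 were 0.12 and -0.15. SLC3A2, the heavy chain of the widely expressed light chains, was at 708 ± 89.6 at passage 1 and 420 ± 113 in regenerated cells, with separate arrays and a log2 difference of -0.76 (adjusted p = 0.194). At passage 4 it ran from 341 to 895. SLC1A5, a glutamine exchanger, was at -0.35 and -0.21, and SLC1A4, a serine and alanine carrier, at 0.45 and 0.16. SLC38A10 was lower at passage 4 than in regenerated cells on all arrays (-0.70, adjusted p = 0.0868), but at 0.12 with the kind of labelling as a block. SLC38A9, a lysosomal arginine sensor, ran from 161 to 542 within passage 1.

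Ion carriers gave no call in any comparison on their brightest probe sets. At an unadjusted p under 0.05 in limma, 1 of 7 was counted at passage 4 and 0 of 7 in regenerated cells against passage 1, and 2 of 7 between passage 4 and regenerated cells, beside 18.6%, 22.1% and 26.7% of all named genes. SLC12A4, a potassium-chloride cotransporter of cell volume control, was at 793, 2285 and 1779 on the passage 1 arrays, a spread that holds the 3 passage 4 arrays (1278 to 1869) and the regenerated arrays (1002 to 1987). SLC8B1, the mitochondrial sodium-calcium exchanger, was at 67.3, 140 and 147 at passage 1, 80.6, 58.6 and 47.9 at passage 4 and 140, 95.8 and 105 in regenerated cells. Its passage 4 difference of -0.74 (adjusted p = 0.222) was short of the threshold. It passed once passage 1 array 1 was left out (-1.05, adjusted p = 0.0454), while the value with the kind of labelling as a block was -0.11. SLC41A1, a magnesium carrier, was lower at passage 4 than in regenerated cells on all arrays of its brightest probe set (-0.80, adjusted p = 0.0706). Its other tested probe sets were at -0.08 (adjusted p = 0.908) and 0.12 (adjusted p = 0.838) there. With the kind of labelling as a block the brightest was at -0.09. The anion exchanger SLC4A2 was at -0.19 at passage 4 and -0.43 in regenerated cells, and SLC26A6, of the anion exchanging SLC26 family, at -0.12 and -0.31. SLC26A11, a sulfate carrier of the same family, was at -0.04 and -0.01 on its brightest probe set. Its dimmer probe set, with mean signals of 85.8 (passage 1), 236 (passage 4) and 69.2 (regenerated), passed at 1.28 at passage 4 (adjusted p = 0.0185) and at 1.54 between passage 4 and regenerated cells (adjusted p = 0.00456), so the probe sets of this gene disagree. SLC34A2, a phosphate carrier, spread from 45.2 to 302 among the passage 1 arrays alone.

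Mitochondrial carriers gave 1 rise at passage 4 and 1 difference between passage 4 and regenerated cells. SLC25A12, the aspartate-glutamate carrier of the malate-aspartate shuttle, stood at 507, 438 and 650 at passage 1, 999.2, 855 and 958 at passage 4 and 575, 703 and 579 in regenerated cells. Every passage 4 array was above all others. The rise against passage 1 was 0.81 (SE 0.20, adjusted p = 0.0404), or 1.76-fold, and it was among the calls most easily lost, in 12 of 21 alternatives. With 1 probe set for SLC25A12, the alternatives that change the probe set could not alter the rise. It was at 0.86 (adjusted p = 0.197) with the kind of labelling as a block. Without passage 1 array 2, any passage 4 array, or regenerated array 2 or 3 it did not pass either.

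SLC25A5, an adenine nucleotide translocase that exchanges ADP for ATP, stood at 6730, 6431 and 6036 at passage 1, 7198, 7002 and 7693 at passage 4, and 4870, 4661 and 4961 in regenerated cells. The 3 groups did not overlap, and passage 4 was higher than regenerated by 0.59 (SE 0.12, adjusted p = 0.00842), or 1.51-fold. Against passage 1 it was at 0.19 at passage 4 (adjusted p = 0.425) and at -0.40 in regenerated cells (adjusted p = 0.0687), so neither passed. With the kind of labelling as a block the difference between passage 4 and regenerated cells was 0.48 (adjusted p = 0.275), and with median centring the call was lost as well. The related translocases SLC25A4 and SLC25A6 were at 0.30 and 0.33 in that comparison and did not pass. These genes are close copies of each other, and the files do not show how far their probes tell them apart.

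SLC25A21, a carrier of oxodicarboxylic acids, was at 810, 358 and 155 at passage 1, 1244, 829 and 1290 at passage 4 and 619, 1058 and 1115 in regenerated cells. With differences of 1.57 and 1.29 it had the largest values of the family but passed in neither comparison (adjusted p = 0.078 and 0.125). Both passed once passage 1 array 1 was left out, with 2.14 (adjusted p = 0.00566) and 1.86 (adjusted p = 0.0166). With the kind of labelling as a block the passage 4 difference did not pass (0.43, adjusted p = 0.763) and the regenerated one did (1.86, adjusted p = 0.0167). SLC25A20, which carries acylcarnitines into mitochondria, stood at 621, 1035 and 1002 at passage 1, 866, 922 and 824 at passage 4 and 601, 653 and 551 in regenerated cells. Its regenerated difference was -0.51 (adjusted p = 0.186), and with the kind of labelling as a block it passed (-0.75, adjusted p = 0.0396). SLC25A3, the phosphate carrier, was above passage 1 on all passage 4 arrays (0.21, adjusted p = 0.437), and its dimmer probe set passed at 0.73 (adjusted p = 0.0345). The citrate carrier SLC25A1 and mitoferrin, the iron importer SLC25A37, were at 0.28 and 0.18 at passage 4 and at -0.10 and -0.10 in regenerated cells. SLC25A46, an outer membrane protein of mitochondrial dynamics, was at 0.40 and -0.12.

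**Figure D2:**
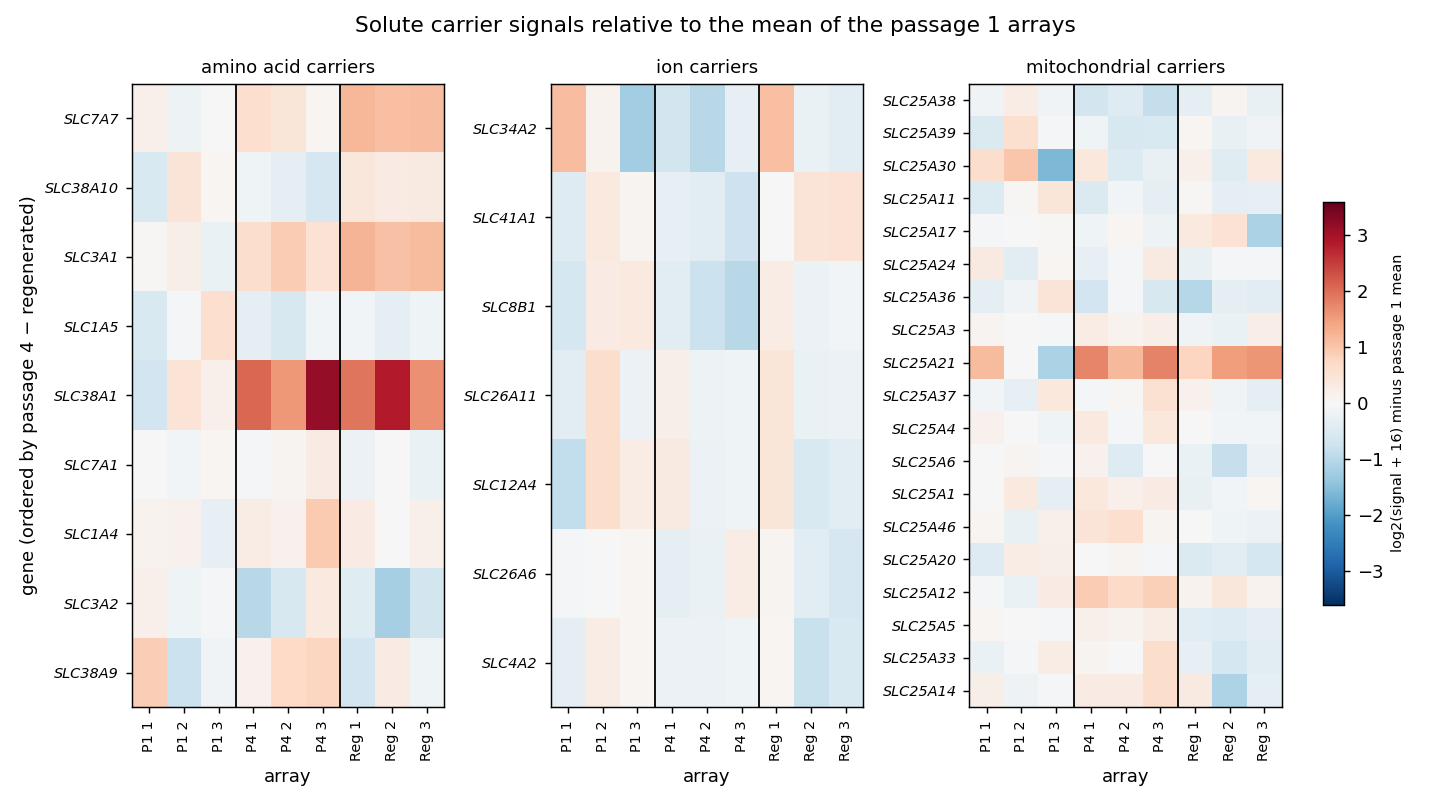
Tested amino acid, ion and mitochondrial carriers on the 9 arrays, coloured by log2(signal + 16) minus the mean of the passage 1 arrays (P1, passage 1; P4, passage 4; Reg, regenerated; genes ordered by the difference between passage 4 and regenerated). SLC38A1 is red on all 6 arrays outside passage 1, and SLC7A7 and SLC3A1 are deepest red on the regenerated arrays.

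At passage 4 against passage 1 the median log2 difference was 0.38 over the 9 amino acid carriers, -0.19 over the 7 ion carriers and 0.19 over the 19 mitochondrial carriers, beside 0.04 over all tested probe sets and -0.02 over all named genes. All 7 ion carriers were lower, against 3 of 9 amino acid and 8 of 19 mitochondrial carriers, beside 2848 of 5493 named genes. These medians were 0.19, -0.01 and 0.12 with the kind of labelling as a block. In regenerated cells against passage 1 the class medians were 0.16, -0.01 and -0.12, beside -0.04 over all named genes, and 0.23, -0.32 and -0.15 with the block. There 16 of the 19 mitochondrial carriers were lower, beside 2984 of 5493 named genes. At passage 4 against regenerated cells the class medians were 0.13, -0.04 and 0.28, beside 0.01 over all tested probe sets, and 0.10, 0.32 and 0.41 with the block. There 14 of 19 mitochondrial carriers were higher, beside 2796 of 5493 named genes. The spread of the class median between arrays of a group was 0.48 for amino acid, 0.34 for ion and 0.22 for mitochondrial carriers (pooled SD, log2). No test was made of the differences between classes.

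**Figure D3:**
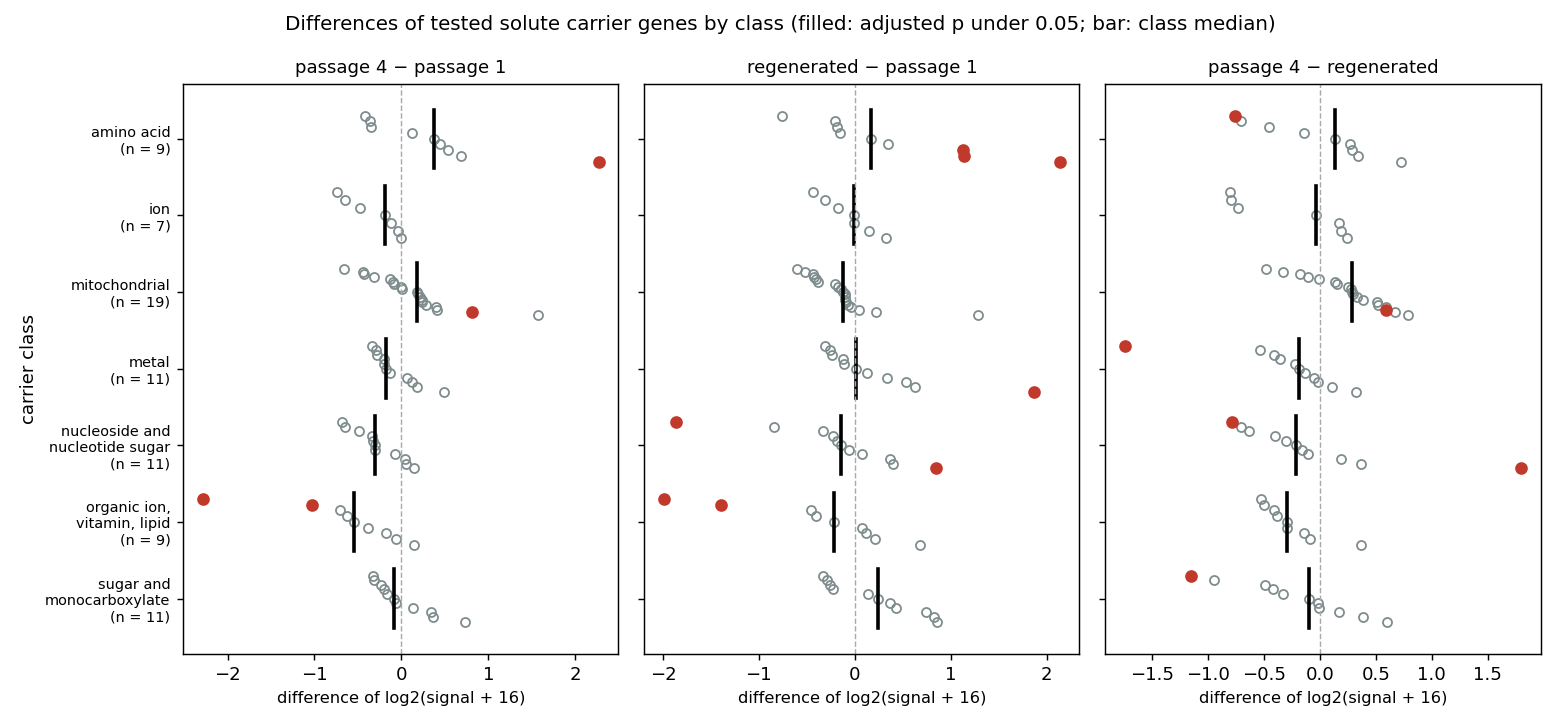
Differences in log2(signal + 16) of tested solute carrier genes in 7 classes, for 3 comparisons. Each circle is 1 gene, filled where the adjusted p was under 0.05, and each bar is the class median. No ion carrier is filled in any panel, and 14 of 19 mitochondrial carriers lie right of 0 at passage 4 against regenerated cells.

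Among nucleoside and nucleotide sugar carriers, SLC29A1 and SLC35F5 differed in regenerated cells. SLC29A1, the equilibrative transporter through which endothelium takes up adenosine, stood at 245, 173 and 309 at passage 1, 246, 208 and 220 at passage 4, and 110, 32.4 and 38.2 in regenerated cells. The regenerated arrays lay below the 6 others. SLC29A1 fell by 1.86 (SE 0.36, adjusted p = 0.0132) in regenerated cells, a 3.64-fold change whose size rests on regenerated arrays 2 and 3, which lay at or below the filter level, so that it ran from -2.30 to -1.33 over the alternatives. Passage 4 was higher than regenerated by 1.80 (adjusted p = 0.00885). At passage 4 the difference from passage 1 was -0.07, with a 95% interval from -0.85 to 0.71. Without regenerated array 2 or 3 the fall did not pass (adjusted p up to 0.0632), and with the kind of labelling as a block the difference between passage 4 and regenerated cells was 1.72 (adjusted p = 0.21).

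SLC35F5, a member of the nucleotide sugar family of unsettled substrate, stood at 979, 746 and 682 at passage 1, 767, 839 and 876 at passage 4, and 1487, 1546 and 1285 in regenerated cells. On this probe set it rose by 0.84 (SE 0.19, adjusted p = 0.0243) in regenerated cells, and passage 4 was lower than regenerated by -0.78 (adjusted p = 0.0187). The rise was lost without passage 1 array 2 or 3 or regenerated array 2 or 3, and the difference from passage 4 without any 1 passage 4 array, without regenerated array 2 and with the kind of labelling as a block (-1.23, adjusted p = 0.0927). Its other tested probe sets went the other way. They were at -0.28 and -0.81 in regenerated cells (adjusted p = 0.546 and 0.233), and the dimmest passed in the opposite direction between passage 4 and regenerated cells, at 1.37 (adjusted p = 0.0334). No direction can be given for the gene as a whole. The other 9 tested members of this class, with the SLC35 carriers that bring nucleotide sugars into the Golgi and endoplasmic reticulum, passed in no comparison. SLC35C2 had the smallest adjusted p, at -0.84 in regenerated cells (adjusted p = 0.058), and SLC35B1 was at 0.15 and 0.36 against passage 1. Without passage 1 array 1, SLC35F6 passed at passage 4 (-1.09, adjusted p = 0.00682, from -0.69) and between passage 4 and regenerated cells (-0.63, adjusted p = 0.031). With the kind of labelling as a block these differences of SLC35F6 were 0.12 and 0.58, in the other direction.

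Against passage 1 both later groups had lower signals of SLC22A5, the carnitine carrier, and of SLC46A2, a relative of the folate carrier known from thymic stroma. SLC22A5 stood at 489, 387 and 356 at passage 1, 175, 206 and 195 at passage 4, and 177, 138 and 124 in regenerated cells. It fell at passage 4 (log2 -1.03, SE 0.23, adjusted p = 0.0281) and in regenerated cells (log2 -1.40, SE 0.23, adjusted p = 0.00552), which is 2.04-fold and 2.63-fold. The fall in regenerated cells passed in all 21 alternatives. SLC22A5 has 1 probe set, so the alternatives that change the probe set repeat the main fit and could not fail. The fall at passage 4 was lost without passage 1 array 2 or any passage 4 array and with the kind of labelling as a block (-1.28, adjusted p = 0.0713). The difference between passage 4 and regenerated cells was 0.37, with a 95% interval from -0.13 to 0.86.

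SLC46A2 stood at 838, 387 and 274 at passage 1, 64, 138 and 54.1 at passage 4, and 97.3, 123 and 85.5 in regenerated cells. All 6 arrays of the later groups were below passage 1, whose array 1 was well above the other passage 1 arrays. SLC46A2 fell at passage 4 (log2 -2.28, SE 0.40, adjusted p = 0.0105), in all 21 alternatives, and in regenerated cells (log2 -1.99, SE 0.40, adjusted p = 0.0168). It too has 1 probe set, so the alternatives that change the probe set repeat the main fit. The second fall was lost without regenerated array 2 or 3 (adjusted p up to 0.0694). The intestinal folate carrier SLC46A1 was at 19.1 on passage 1 array 1 and at 160 and 198 on the other passage 1 arrays, with passage 4 at 103 to 108. Its difference at passage 4 was 0.15 (adjusted p = 0.916). It was 1.79 (adjusted p = 0.0353) with the kind of labelling as a block, a value that rests on that 1 dim array.

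The other 6 tested carriers of organic ions, vitamins and lipids passed in no comparison. At passage 4, 8 of the 9 tested members of the class were lower than at passage 1, with a median of -0.55, beside 2848 of 5493 named genes and a median of -0.02. SLC23A2, a sodium-coupled vitamin C carrier, was below passage 1 on all passage 4 arrays, at 136 ± 13.5 against 231 ± 25.6 (log2 -0.70, adjusted p = 0.096). SLC33A1, which brings acetyl-CoA into the endoplasmic reticulum, was at -0.55 and -0.46, and the choline transporter-like SLC44A2 at -0.38 and 0.12. SLC27A6, of the fatty acid transport family, was at -0.17 and 0.21.

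Of 11 tested metal carriers 1 passed. SLC39A2, a zinc importer, stood at 64.2, 40.2 and 7.20 at passage 1, 19.1, 45.8 and 46.7 at passage 4, and 138, 162 and 169 in regenerated cells. It rose by 1.87 (SE 0.42, adjusted p = 0.028) in regenerated cells, and passage 4 was lower than regenerated by -1.74 (SE 0.42, adjusted p = 0.0211). The passage 1 and passage 4 signals lay near the filter level, the 40th percentile of an array, which was 37.2 to 49.2, so the size of the change depends on the constant added before the logarithm. SLC39A2 was above that level on 5 arrays, all regenerated arrays among them, and would not have passed the filter without these. Both of its differences are thus best read as a description. With a constant of 1 neither call passed. Both were also lost without regenerated array 2 or 3, the first without passage 1 array 3, and the second without passage 4 array 1. With the kind of labelling as a block the second was at -2.89 (adjusted p = 0.0875). The zinc importer SLC39A1 was at -0.29 and -0.24 against passage 1. Its relative SLC39A14 was at -0.20 and -0.31, the iron carrier SLC11A2 at 0.06 and -0.26, and the copper importer SLC31A1 at -0.13 and -0.11.

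Of 11 tested sugar and monocarboxylate carriers SLC45A3, known as prostein, differed between passage 4 and regenerated cells. It stood at 122, 331 and 246 at passage 1, 184, 150 and 177 at passage 4, and 410, 396 and 385 in regenerated cells. The log2 difference was -1.15 (SE 0.30, adjusted p = 0.0289), but it was lost without any 1 of the 6 arrays compared, and with the kind of labelling as a block it was -0.03 (adjusted p = 0.979). Its other probe sets were at -0.75 (adjusted p = 0.111) and at 1.23 (adjusted p = 0.177), the latter in the other direction. The glucose-6-phosphate carrier SLC37A4 and SLC5A10, of the sodium-glucose cotransporter family, were at -0.16 and -0.06 at passage 4 and at -0.33 and 0.36 in regenerated cells.

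Among tested carriers with more than 1 probe set, the other tested probe sets had the same sign as the brightest in 18, 16 and 16 of 28 cases in the 3 comparisons. Dimmer probe sets passed between passage 4 and regenerated cells for the zinc carrier SLC30A5 (-1.36, adjusted p = 0.00809), SLC33A1 (-0.90, adjusted p = 0.0299) and SLC25A37 (0.88, adjusted p = 0.0474). Both dimmer probe sets of SLC44A2 passed there, in opposite directions (-0.70, adjusted p = 0.0423 and 1.18, adjusted p = 0.0281). Carriers below the filter numbered 35, had signals from 0.346 to 73.0, and were not tested. Those of amino acids were SLC1A2, SLC1A3, SLC1A6, SLC6A14, SLC7A4, SLC7A9 and SLC36A2, and those of ions SLC4A4, SLC8A1, SLC9A3, SLC9A4, SLC9A5, SLC17A1 and SLC26A3. SLC25A48, SLC25A51, SLC11A1, SLC28A1, SLC28A3, SLC2A2, SLC2A5, SLC5A1, SLC6A4, SLC15A1 and SLC15A2 were below it too. So were SLC5A5, SLC10A1, SLC22A2, SLC22A3, SLC22A6, SLC22A8, SLC23A1, SLC27A1, SLC44A4 and SLC46A3. The creatine carrier SLC6A8 was at -0.22 and 0.14 against passage 1. The symbols also include 3 regulators that are not carriers, SLC9A3R1, SLC9A3R2 and SLC2A4RG. They were at -0.12, 0.34 and 0.73 at passage 4 and at -0.49, 0.19 and 0.36 in regenerated cells, and none passed. Of 37 carriers chosen as a panel whatever their result, 16 were not analysed here, among them SLC7A5, SLC7A11 and SLC38A2. No member passed the filter through 3 arrays of 1 group alone. Of the 11 genes with a call, only SLC39A2 would have failed the filter without the arrays of 1 group, the regenerated ones.

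Genes that work with the carriers were read from lists chosen by function, beside the shares of all named genes given above for calls and, for an unadjusted p under 0.05, 18.6% at passage 4 and 22.1% in regenerated cells against passage 1 and 26.7% between passage 4 and regenerated cells. None of the calls of these lists at passage 4 against passage 1 or between passage 4 and regenerated cells passed with the kind of labelling as a block. Of 17 tested genes of the amino acid starvation response none rose, and DDIT3 and CEBPB, transcription factors of stress responses, fell at passage 4. DDIT3 stood at 609, 471 and 757 at passage 1, 193, 261 and 314 at passage 4 and 362, 435 and 418 in regenerated cells, a fall at passage 4 (log2 -1.21, limma adjusted p = 0.0193, or -1.23 and 0.139 with that block). CEBPB fell by 1.00 at passage 4 (adjusted p = 0.0286, or -1.17 and 0.121 with the block) and was lower than in regenerated cells (-0.86, adjusted p = 0.0281, or -1.10 and 0.196), and no gene of this list passed in regenerated cells against passage 1, where 3 had an unadjusted p under 0.05 in limma. The list's medians were -0.15 and -0.37, beside 0.04 and -0.01 over all tested probe sets.

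Of 13 tested genes of glutamine and glutathione metabolism 1 fell at passage 4, 1 rose and 2 fell in regenerated cells, and 2, GCLC and GLUL, were lower at passage 4 than in regenerated cells. GLUL, glutamine synthetase, stood at 3101, 2702 and 2258 at passage 1, 2825, 2248 and 2737 at passage 4 and 4917, 6291 and 5911 in regenerated cells. The regenerated arrays were above all others, with a rise of 1.09 (adjusted p = 0.00443), which passed with the block too (adjusted p = 0.00523). Passage 4 was lower than regenerated by a log2 difference of -1.13 (adjusted p = 0.00304, or -1.45 and 0.0662 with the block). GCLC, the catalytic subunit of the first enzyme of glutathione synthesis, fell at passage 4 (-1.41, adjusted p = 0.0207, or -1.50 and 0.131 with the block) and was lower than in regenerated cells (-1.20, adjusted p = 0.0193, or -1.34 and 0.217). ARG2, an arginase, and GSR, glutathione reductase, fell in regenerated cells (log2 -1.14 and -1.11, adjusted p = 0.0194 and 0.0483), and with the block ARG2 passed (-1.07) and GSR did not (-0.90, adjusted p = 0.0971).

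Of 11 tested genes of the sodium pump and its partners none passed against passage 1, with 3 and 0 at an unadjusted p under 0.05 in limma. ATP2B1, a plasma membrane calcium pump, and ATP6V1A, a subunit of the vacuolar proton pump, were higher at passage 4 than in regenerated cells, by 1.14 and 0.79 (adjusted p = 0.0282 and 0.0458), or by 0.53 and 0.42 with the block (adjusted p = 0.602 and 0.6). None of 9 tested genes of metal handling passed in any comparison, with 3, 1 and 4 at an unadjusted p under 0.05. Of 21 tested genes of mitochondrial protein import none passed against passage 1, with 3 and 7 at an unadjusted p under 0.05, and TOMM70, TIMM50 and TOMM22 were higher at passage 4 than in regenerated cells, by 2.12, 0.98 and 0.55. With the block these were 0.61, 1.71 and 0.64 (adjusted p = 0.631, 0.108 and 0.205). The 3 of 21 lie near the 10.7% of all named genes called in that comparison. TOMM70 stood at 73.8, 42.9 and 18.35 on the regenerated arrays, near the filter level of 37.2 to 49.2. The size of its difference thus depends on the constant added before the logarithm.

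**Figure D4:**
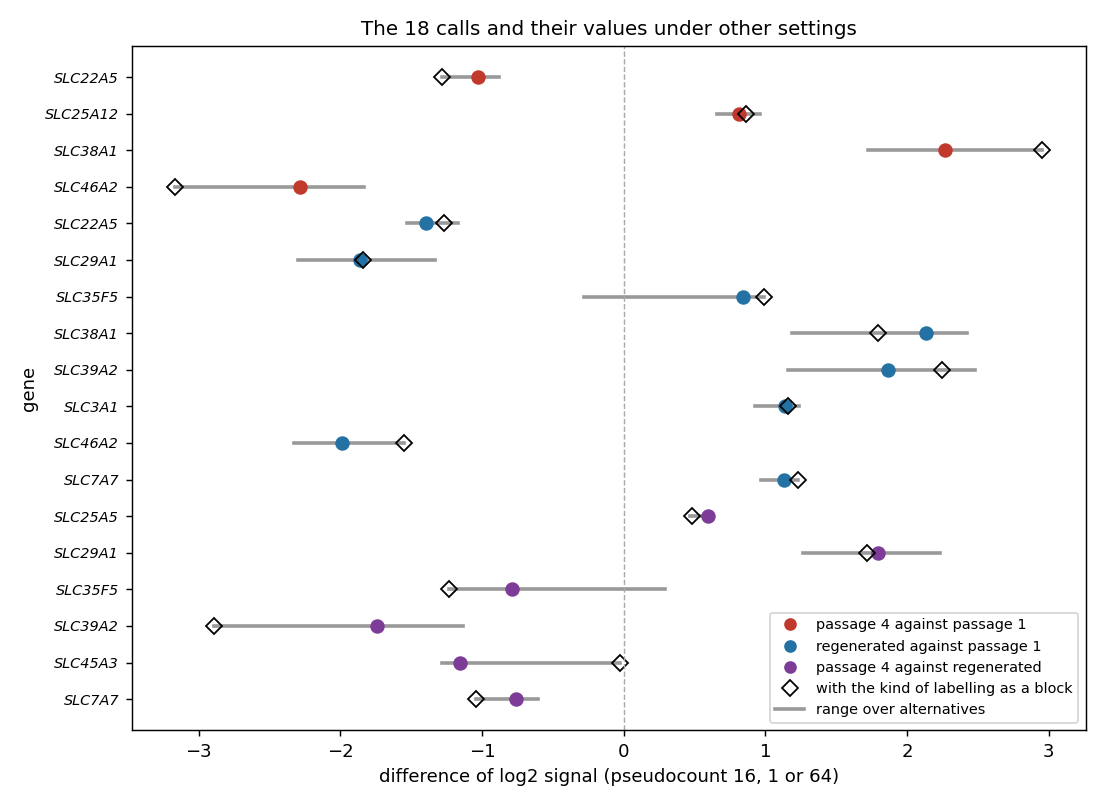
The 18 calls, 1 per line, as differences of log2 signal (circles, coloured by comparison), with the range over the alternatives tried (grey bars) and the value with the kind of labelling as a block (open diamonds). Only the bars of SLC35F5 cross 0, and the diamond of SLC45A3 lies at -0.03.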

How the data were processed

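The deposited values are MAS5 signals, per the submitters' processing notes, a linear intensity per probe set that the authors scaled (the 2% trimmed mean was 500.1 on each of the 9 arrays). Array number limits the precision. The members and gene lists were chosen with earlier results of these data known. From the deposited intensity, log2(signal + 16) was computed, and the 15299 of 23999 non-control probe sets above the array's 40th percentile on at least 3 arrays were fitted with limma 3.58.1 in R 4.3.3 (lmFit and eBayes with trend, 3 groups, two-sided, 6 residual and 5.65 prior degrees of freedom). P-values were Benjamini-Hochberg adjusted over all 15299. The procedure was tested on simulated data. There it called 35% of 100 probe sets changed by 1 log2 unit at passage 4 against passage 1, and 88% of 100 changed by 2. A gene that did not pass may thus still differ. Symbols came from the platform annotation, in which 10069 probe sets had 1 symbol, 198 several and 13732 none, and 115 of 116 members were found by Entrez ID in RefSeq Sscrofa11.1. Named genes were members past the threshold with separate groups, the brightest and dimmest tested member of each class and a panel of 37. Other members were named after their values were seen. Each array was left out in turn, and other constants, filters, normalizations, probe sets and blocks were tried. Same-numbered arrays correlated at -0.138 to 0.186 in their deviations from group means, so the numbers were not taken to pair them.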

Additional observations from a re-analysis of the deposited data

Results flagged for a closer look

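For 6 solute carriers the change at passage 4 and the change in regenerated cells, both taken against the same passage 1 arrays, differed by limma's test of the difference (adjusted p under 0.05). Passage 1 cancels from that difference, so these are the same 6 calls between passage 4 and regenerated cells given above. They are 7.41% of 81 tested carriers, against 10.7% of all named genes. The log2 difference was 0.59 for SLC25A5, 1.80 for SLC29A1, -0.78 for SLC35F5, -1.74 for SLC39A2, -1.15 for SLC45A3 and -0.76 for SLC7A7. Other tested probe sets of SLC35F5, and the dimmest of SLC45A3, went the other way. SLC39A2 would have failed the filter without the regenerated arrays, where it is high, so its difference is best read as a description. With the kind of labelling as a block none of the 6 passed, but only 35 of 15299 probe sets (0.229%) did in that comparison, and the median SE was 0.44 against 0.27 without it. There 19 of 81 members had an unadjusted p under 0.05 in limma. The share of all named genes at that level with the block was not computed, so this count has nothing to be read against. The differences were then 0.48, 1.72, -1.23, -2.89, -0.03 and -1.04 in the same order, so that only that of SLC45A3 came near 0. All passage 4 arrays are of one kind of labelling and all regenerated arrays of the other, and the part of labelling in these differences was not tested.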

How the results depend on the processing

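At passage 4 against passage 1 the count of 4 members became 2 with the replicate block, the only count there moved by over 1.5 times outside leaving out arrays, which gave 1 to 8. In regenerated cells the count of 8 became 4 on the second brightest probe set, and 2 to 10 with 1 array left out. Between passage 4 and regenerated cells the count of 6 became 11 when a gene counted if any of its probe sets passed with the sign of their mean (single probe sets, not a fit of the mean), 11 with only the 6 arrays compared and 0 with the kind of labelling as a block, and 2 to 9 with 1 array left out. With that block the median of ion carriers in this comparison moved from -0.04 to 0.32. SLC35F5 reversed with the second brightest probe set and with the mean over probe sets, to -0.28 and -0.0821 in regenerated cells and to 0.28 and 0.29 between passage 4 and regenerated cells. The replicate block gave 6 and 5 calls in the other comparisons. With 1 array left out, the share of all tested probe sets called ran from 1.59% to 9.17% at passage 4 against passage 1. It ran from 1.9% to 8.09% in regenerated cells against passage 1, and from 5.85% to 15.7% between passage 4 and regenerated cells. Median centring moved the median of all probe sets at passage 4 from 0.04 to -0.12. The cause of these changes was not tested. Low signals near the filter limit SLC39A2.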
